A study of Mus musculus with 2 samples.

Results

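The H2 genes are the major histocompatibility genes of the mouse. They were taken as all protein-coding genes of the GENCODE mm9 annotation on chromosome 17 whose symbol starts with H2-, which gave 36 of 22380 protein-coding genes. They lie between chr17:34075766-37620497 (mm9), a stretch of 3.54 Mb that holds 153 other protein-coding genes. By role they divide into 2 classical class I genes (H2-K1 and H2-D1), 23 nonclassical class I genes (6 H2-Q, 5 H2-T and 12 H2-M), 4 class II genes (H2-Aa, H2-Ab1, H2-Eb1, H2-Eb2), 5 class II accessory genes (H2-DMa, H2-DMb1, H2-DMb2, H2-Oa, H2-Ob) and 2 genes that carry the name without belonging to the family (H2-Ke2, a prefoldin subunit gene, and H2-Ke6, a hydroxysteroid dehydrogenase gene). The annotation has 2 separate entries named H2-Q2, called entry 1 (chr17:35457350-35462044) and entry 2 (chr17:35479187-35483707).

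Open chromatin was mapped by DNase-seq, which sequences the ends that the nuclease DNase I leaves where DNA is accessible. G1E is a male erythroid progenitor line of strain 129 that lacks the transcription factor Gata1, and it was left untreated. G1E-ER4 is the same kind of cell with Gata1 restored, collected after 24 h with 10 nM beta-estradiol. The effects of the line, of restored Gata1, of estradiol and of the single sample cannot be told apart. Every state comprised 1 sample, with 2 lists of 100000 peaks, called G1E-ER4 lists 1 and 2 and G1E lists 1 and 2. Whether a pair of lists stems from separate cultures is not given in the labels, so their spread may be technical, and no permutation p over 2 against 2 lists can lie under 0.33. Read depth is unknown. Each peak's signal was therefore used only as a percentile within its own list, from 0 to 100 for the strongest peak. Chromosome 17 held 4790 and 4710 peaks of the G1E-ER4 lists against 5089 and 4830 of the G1E lists, and the median peak width was 579, 836, 520 and 646 bp in that order. Of 8 erythroid marker genes, 7 had a peak within 1 kb of a start in all 4 lists, against 52.4% of all protein-coding genes. Among them was Klf1 at percentiles 96.1, 91.9, 90.6 and 94.0, while Alas2 had such a peak only in G1E-ER4 list 2. Some markers of other blood cells, given below, also had such a peak in all 4 lists, so these peaks do not establish identity.

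Class I molecules carry peptides from inside the cell to the surface, where CD8 T cells read them. Nonclassical class I molecules resemble them but are less variable and serve narrower purposes, such as signalling to natural killer cells. Class II molecules are made mainly by B cells, dendritic cells and macrophages and show peptides taken up from outside to CD4 T cells. Promoters of class II genes carry an X box, bound by the RFX complex, and a Y box, bound by NF-Y, and the coactivator Ciita joins both. Class I promoters carry in addition sites for NF-kappa B and interferon regulatory factors (IRF).

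Promoter sequences of 8 H2 genes are shown first, since the positions of the peak summits are read against them below. They are RefSeq promoter sequences (GRCm38.p6), of which the table used here held 31 of 35 symbols. Each of the 31 was placed on mm9 by an exact match of its letters, and H2-Ab1, H2-Ke2, H2-T24 and H2-T9 were not among them. Each sequence is the 200 bases before the RefSeq start, 5′ to 3′ on the strand of the gene. Capitals mark matches on either strand to the motifs GGGATTCC (kappa B), GAANNGAAA (IRF, here as its reverse complement), CTNGNAAC (X box core), TGACG (the short CREB site, part of the X box region) and CCAAT (Y box, also read as ATTGG). The class I promoters are H2-K1 (chr17:34137279-34137478, minus strand), H2-D1 (chr17:35399839-35400038, plus strand), H2-Q7 (chr17:35575900-35576099, plus strand) and H2-T22 (chr17:36179688-36179887, minus strand).
H2-K1: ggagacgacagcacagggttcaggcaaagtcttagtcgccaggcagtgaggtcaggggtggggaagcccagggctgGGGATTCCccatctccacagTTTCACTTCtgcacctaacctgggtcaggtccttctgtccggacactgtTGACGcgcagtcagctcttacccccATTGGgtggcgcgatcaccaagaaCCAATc
H2-D1: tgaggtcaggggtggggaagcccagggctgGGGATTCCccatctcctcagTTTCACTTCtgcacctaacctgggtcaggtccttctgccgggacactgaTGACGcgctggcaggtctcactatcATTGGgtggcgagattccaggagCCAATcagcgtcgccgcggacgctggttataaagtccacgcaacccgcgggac
H2-Q7: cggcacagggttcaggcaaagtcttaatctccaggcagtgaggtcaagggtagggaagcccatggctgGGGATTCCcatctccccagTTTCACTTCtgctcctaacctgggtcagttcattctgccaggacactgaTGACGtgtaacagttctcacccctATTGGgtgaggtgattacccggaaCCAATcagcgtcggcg
H2-T22: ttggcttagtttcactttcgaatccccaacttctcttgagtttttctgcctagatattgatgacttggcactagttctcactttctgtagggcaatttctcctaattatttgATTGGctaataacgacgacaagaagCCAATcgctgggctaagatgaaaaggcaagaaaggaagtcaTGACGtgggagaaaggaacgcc

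The first 3 hold the kappa B, IRF, CREB site and Y box matches in the same order, and then a second Y box in the other direction. Local alignment found 89.6% identity between H2-K1 and H2-D1 over 154 aligned positions, 86.3% between H2-K1 and H2-Q7 over 190, and 84.8% between H2-D1 and H2-Q7 over 164. H2-T22 has 2 Y boxes and a CREB site in another order, and aligned to H2-D1 at 64.2% over 81 positions. It also holds 1 match to the IRF motif in its other order (GAAANNGAA), near the 5′ end of the printed stretch. That order is not marked in capitals.

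The next 4 promoters, of class II and accessory genes, hold the X box core followed by the Y box. They are H2-Aa (chr17:34424769-34424968, minus strand), H2-Eb1 (chr17:34442612-34442811, plus strand), H2-Ob (chr17:34375650-34375849, plus strand) and H2-DMb1 (chr17:34289936-34290135, plus strand). In H2-Aa the CREB site is present in both directions, with the letters overlapping. All 4 genes had a peak within 1 kb of a start in all 4 lists. H2-Eb2 also held both motifs around its first annotated start, but it had no such peak in any list and is not printed. H2-Ab1 and H2-DMa had such a peak in all 4 lists without an X box core match around their first annotated start. H2-DMa had no Y box match there either.
H2-Aa: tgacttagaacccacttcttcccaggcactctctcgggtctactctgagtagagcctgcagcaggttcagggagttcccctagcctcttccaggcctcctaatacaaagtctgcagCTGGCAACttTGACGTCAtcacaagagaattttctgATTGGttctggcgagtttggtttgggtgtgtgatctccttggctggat
H2-Eb1: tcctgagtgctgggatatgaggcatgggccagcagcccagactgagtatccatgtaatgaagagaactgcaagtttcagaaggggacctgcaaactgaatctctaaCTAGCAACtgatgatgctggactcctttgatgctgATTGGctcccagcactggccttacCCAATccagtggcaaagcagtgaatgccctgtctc
H2-Ob: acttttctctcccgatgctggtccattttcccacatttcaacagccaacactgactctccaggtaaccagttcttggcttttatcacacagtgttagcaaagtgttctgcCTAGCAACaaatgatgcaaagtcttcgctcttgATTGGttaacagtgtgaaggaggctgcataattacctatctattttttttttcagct
H2-DMb1: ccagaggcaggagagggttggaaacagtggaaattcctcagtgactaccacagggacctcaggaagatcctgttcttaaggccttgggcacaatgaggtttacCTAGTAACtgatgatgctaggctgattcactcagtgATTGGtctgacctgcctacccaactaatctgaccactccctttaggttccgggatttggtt

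The X box core and the Y box were separated by 28 bases in H2-Aa and H2-DMb1, 27 in H2-Eb1 and 25 in H2-Ob. In windows from 250 bases before to 50 bases after the first annotated start, the X box core was found in 3 of 4 class II genes (H2-Aa, H2-Eb1, H2-Eb2), 2 of 5 accessory genes (H2-DMb1, H2-Ob), 6 of 23 nonclassical class I genes (26.1%), no classical class I gene and 13.1% of all protein-coding promoters. The Y box was found in 4 of 4 class II genes and 2 of 5 accessory genes (H2-Oa, H2-Ob), against 37.9% of all promoters. It was in 1 of 2 classical and 18 of 23 nonclassical class I genes. The nonclassical genes with it include H2-M genes such as H2-M3 and H2-M10.1, which had no promoter peak in any list. The window around the first start of H2-DMb1 misses its Y box shown above. The kappa B motif was in 1 of 2 classical and 2 of 23 nonclassical class I windows, against 1.10% of all. The first annotated start of H2-D1 lies upstream of its RefSeq start, so that window misses the H2-D1 motifs shown above. The IRF motif GAANNGAAA was in 7 of 23 nonclassical genes against 7.90% of all, and in the other order (GAAANNGAA) in 5 of 23 against 8.92%. The 2 GATA motifs, AGATAA and TGATAA, were in 1 and 0 of 4 class II and 4 and 5 of 23 nonclassical windows, against 10.4% and 8.27%. GGGCGG, the GC box, was in 1 classical gene, H2-D1, in 3 of 23 nonclassical genes and in no class II or accessory gene, against 43.4% of all. The letters are a description of the windows and carry no test of binding. The X box core and the GAANNGAAA order were added after the data had been seen.

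Most class II and both classical class I promoters were open in every list, while no H2-M promoter was open in any. A promoter counted as open in a list if a peak reached within 1 kb of any annotated start. Of the 36 H2 genes, 15 (41.7%) were open in all 4 lists, against 52.4% of all protein-coding genes and 97 of 153 (63.4%) of the other genes in the stretch. These 15 were H2-K1 and H2-D1 (2 of 2 classical class I), H2-Aa, H2-Ab1 and H2-Eb1 (3 of 4 class II), H2-DMa, H2-DMb1 and H2-Ob (3 of 5 accessory), H2-Ke2 and H2-Ke6 (2 of 2), and 5 of 23 nonclassical genes, H2-Q6, H2-Q7, H2-T22, H2-T23 and H2-T3. Another 14 (38.9%) were open in no list, against 27.3% of all genes. These were the 12 H2-M genes (H2-M1, H2-M2, H2-M3, H2-M5, H2-M9, H2-M10.1, H2-M10.2, H2-M10.3, H2-M10.4, H2-M10.5, H2-M10.6 and H2-M11), the class II beta chain gene H2-Eb2 and H2-Oa. The 5 genes open in 3 lists were H2-Q2 entry 1, H2-Q2 entry 2, H2-Q4, H2-Q10 and H2-T24, all nonclassical. Counts of genes in classes this small were not tested.

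**Figure D1:**
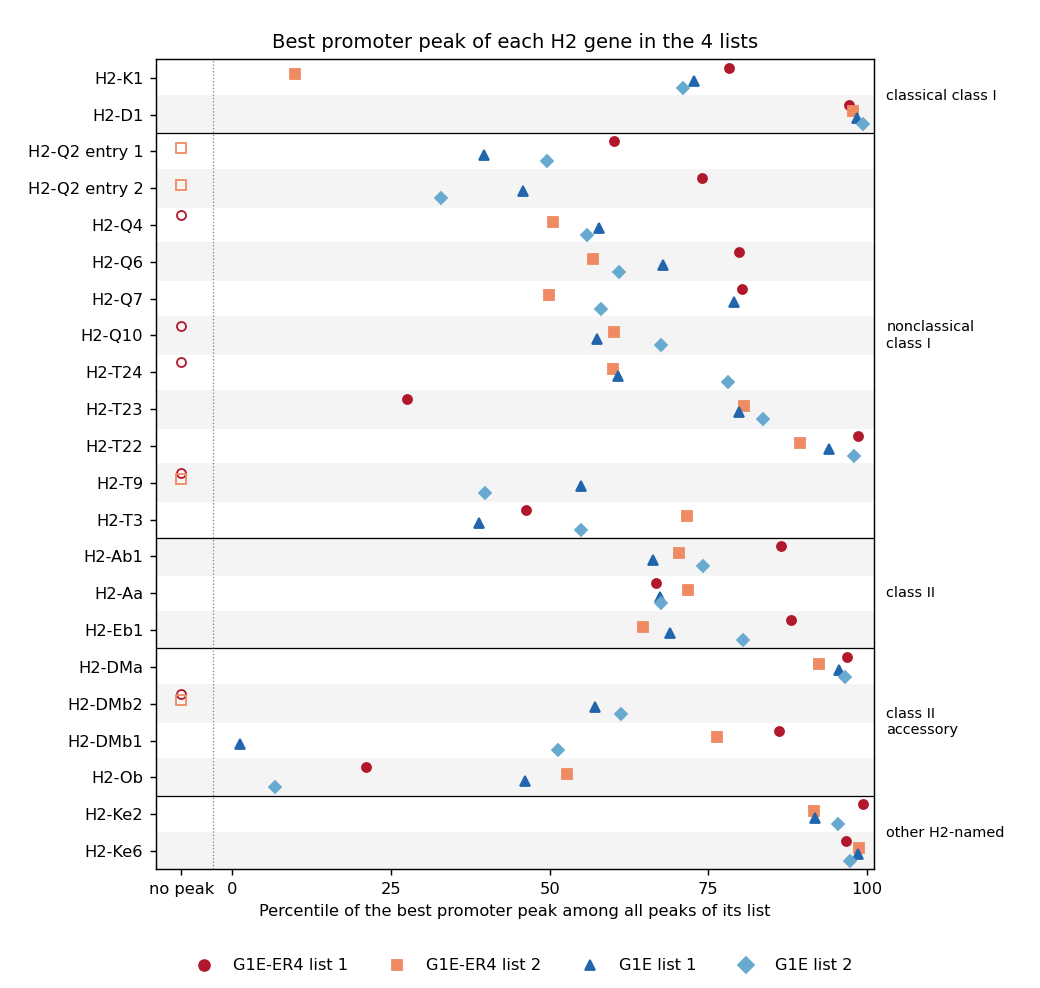
Percentile of the best promoter peak within its list (x axis, 100 is the strongest peak) for the 22 H2 genes with a promoter peak in at least 1 list (y axis), grouped by class. Filled symbols are the 4 lists and open symbols at the left mark lists without a promoter peak; H2-D1, H2-DMa, H2-Ke2 and H2-Ke6 lie above 90 in every list, while H2-K1, H2-T23 and H2-DMb1 each have 1 list far below the others.

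The classical class I genes stood at different levels. H2-D1 (chr17:35399675-35404444) had percentiles of 97.2 and 97.7 in G1E-ER4 lists 1 and 2 and 98.4 and 99.3 in G1E lists 1 and 2. The summits of the best peaks lay 67, 27, 30 and 49 bases upstream of the RefSeq start. H2-D1 ranked highest of the class I and class II genes in G1E lists 1 and 2 and in G1E-ER4 list 2, while in G1E-ER4 list 1 H2-T22 ranked above it. H2-K1 (chr17:34132962-34137278) had percentiles of 78.3 and 9.91 in G1E-ER4 against 72.8 and 71.0 in G1E. G1E-ER4 list 2 was far below the other 3. The peaks also differed in place, as the best G1E-ER4 list 1 peak had its summit 3384 bases into the gene from the first start and no peak of that list covered the RefSeq start. The G1E-ER4 list 2 summit lay 327 bases downstream, and the G1E summits lay 119 bases upstream and 1281 bases downstream.

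Class II promoters had peaks of middle to high rank in both states. H2-Aa, the alpha chain of the I-A molecule (chr17:34406276-34424772), stood at 66.8 and 71.8 in G1E-ER4 against 67.4 and 67.5 in G1E, the tightest set among the class II genes. H2-Ab1, its beta chain (chr17:34400154-34406363), stood at 86.4 and 70.4 in G1E-ER4 against 66.3 and 74.1 in G1E. H2-Eb1, the beta chain of the I-E molecule (chr17:34442828-34453144), stood at 88.0 and 64.7 in G1E-ER4 against 69.0 and 80.4 in G1E. The states overlapped at all 3 genes. Their median percentile was 86.4, 70.4, 67.4 and 74.1 in the 4 lists, against 89.9, 92.7, 92.1 and 92.8 for all genes with a promoter peak in the list. H2-Eb2 (chr17:34462610-34477174) had no promoter peak, and a region 8852 bases past its end (chr17:34486026-34487042) was in all 4 lists at 65.9, 58.4, 42.0 and 72.0.

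The best class II peaks had their summits close to the start. At H2-Aa they were 58, 59, 55 and 66 bases upstream of the RefSeq start in the 4 lists, between the CREB site and the Y box, which begins 48 bases upstream. At H2-Eb1 they were 23, 42, 35 and 26 bases upstream, and its Y boxes begin 59 and 35 bases upstream. At H2-Ab1 the summits lay 22 bases upstream and 18, 8 and 32 bases downstream of the first annotated start. These are the summits of the best peak of each list, and all of them lay within 66 bases of a start. G1E-ER4 list 1 and G1E list 2 had a further, lower peak upstream, at percentiles 83.3 and 4.95 for H2-Ab1 and 75.6 and 50.6 for H2-Eb1.

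**Figure D2:**
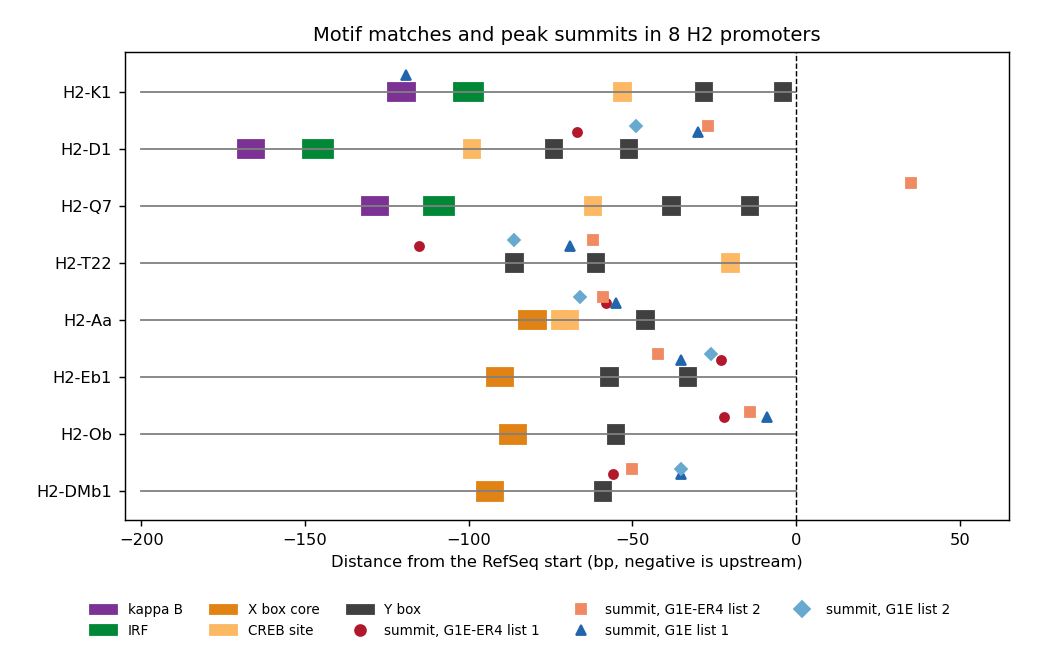
Position of motif matches (boxes) and of peak summits (symbols above each line, by list) along 8 H2 promoters, as distance from the RefSeq start in bp. IRF boxes mark GAANNGAAA alone. At the class II and accessory genes all drawn summits lie downstream of the X box core; summits more than 200 bp upstream or 60 bp downstream, as in H2-K1 and H2-Q7, are not drawn.

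The accessory genes encode H2-DM, which loads peptides onto class II molecules, and H2-O, which restrains H2-DM. H2-DMa (chr17:34272127-34276046) stood at 96.8, 92.5, 95.5 and 96.5 in G1E-ER4 lists 1 and 2 and G1E lists 1 and 2, with all summits 302 to 336 bases downstream of its first start. H2-DMb1 (chr17:34290017-34297168) stood at 86.2 and 76.4 in G1E-ER4 against 1.27 and 51.3 in G1E. Both G1E-ER4 lists lay above both G1E lists, with means of 81.3 and 26.3, a difference of 55.0 points. The G1E lists differed from each other by 50.0 points, and without G1E list 1 the difference between the states was 29.96 points. The H2-DMb1 peak was 932 and 850 bp wide in G1E-ER4 and 252 and 444 bp wide in G1E, and its summits lay 56, 50, 35 and 35 bases upstream of the RefSeq start. H2-Ob (chr17:34375848-34390850) stood at 21.1 and 52.8 in G1E-ER4 against 46.1 and 6.76 in G1E. Its first 3 peaks had summits 22, 14 and 9 bases upstream of the RefSeq start, and that of G1E list 2 lay 1664 bases into the gene, 531 bases past another annotated start. H2-Oa (chr17:34229285-34232179) had no promoter peak.

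Of the nonclassical genes, H2-T22, whose product is a ligand of gamma delta T cells, had the highest ranks. H2-T22 (chr17:36174073-36179692) stood at 98.6, 89.5, 94.0 and 98.0, with summits 115, 62, 69 and 86 bases upstream of its RefSeq start. H2-T23, which encodes Qa-1, a ligand of natural killer cell receptors (chr17:36166718-36169800), stood at 27.6 and 80.5 in G1E-ER4 against 79.8 and 83.5 in G1E. The low value belongs to a G1E-ER4 list 1 peak that did not cover the start. In that list a peak at percentile 93.5 lay in the H2-T23 gene just outside the 1 kb window. With a distance of 2000 bp the difference between the states went from -27.6 to -0.34 points. H2-T3, the thymus leukaemia antigen (chr17:36322517-36327232), stood at 46.3, 71.7, 38.8 and 54.9.

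H2-Q7, one of the genes of the Qa-2 antigen (chr17:35576100-35580714), stood at 80.2 and 49.8 in G1E-ER4 against 78.9 and 58.0 in G1E. H2-Q6 (chr17:35561795-35567000) stood at 79.8, 56.7, 67.9 and 60.9. At both genes G1E-ER4 list 2 was the lowest and G1E-ER4 list 1 the highest, so the states overlapped. Summits of the best H2-Q7 peaks were spread from 376 bases upstream of the first start to 3996 bases downstream. H2-Q4, H2-Q10 (a secreted class I molecule of the liver) and H2-T24 had promoter peaks in every list but G1E-ER4 list 1, and both H2-Q2 entries in every list but G1E-ER4 list 2. In G1E-ER4 list 1 a peak at percentile 62.3 lay inside H2-Q10 but did not reach the 1 kb window. The 2 name-sharing genes were high throughout, H2-Ke2 at 99.3, 91.5, 91.7 and 95.4 and H2-Ke6 at 96.6, 98.8, 98.5 and 97.2.

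Few H2 promoters separated the states. No H2 gene was open in the G1E-ER4 lists alone (both of them, with neither G1E list), against 1.18% of all protein-coding genes. The reverse, open in the pair of G1E lists alone, held for 2 H2 genes (5.56%), against 0.804%. These 2 were H2-DMb2 at 57.1 and 61.2 and H2-T9 at 54.9 and 39.9. The H2-DMb2 peaks (chr17:34279751-34280776) lay at the start of a transcript that begins upstream at chr17:34280252, and no list had a peak within 1 kb of the RefSeq start at 34282194. These best H2-T9 peaks had their summits 1289 and 1238 bases into the gene (chr17:36264424-36266370) and reached into the 1 kb window only with their edge. In the stretch they cover (chr17:36264539-36265742), G1E-ER4 list 1 also had a peak, at percentile 14.1, which did not reach that window. G1E list 2 had another peak of nearly the same rank (39.5) that covered the start, with its summit 130 bases upstream, and G1E list 1 had no peak there. With a distance of 500 bp or of 2000 bp, 1 gene was left in this class. The count was 4 without G1E-ER4 list 1 and 5 without G1E-ER4 list 2, where fewer lists have to lack a peak. Of the 15 genes open in all lists, 1 (H2-DMb1) ranked higher in both G1E-ER4 lists, against 15.8% of 11722 genes, and 1 (H2-D1) higher in both G1E lists, against 13.1%. The H2-D1 means were 97.4 in G1E-ER4 and 98.8 in G1E, a difference of -1.40 points, and the lists of a state differed from each other by 0.565 and 0.815 points. Without G1E-ER4 list 2 the counts were 11 higher in G1E-ER4 and 4 higher in G1E of 17 genes, and without G1E-ER4 list 1 they were 5 and 10 of 18. At these H2 genes the 2 G1E-ER4 lists thus leaned in opposite directions against the same G1E lists. Shares of all genes were not computed for counts with 1 list left out. Whether this lean is particular to H2 genes was therefore not tested.

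Similar H2 copies share short sequences, which matters because the reads were 20 bases long and reads with several places were kept at their best place. In the 2 kb around the first start, a median of 22.9% of the 20-base words of an H2 gene occurred elsewhere in the genome on either strand, against 9.03% for 1055 other genes of chromosome 17 and 9.69% for the other genes of the stretch. The median was 61.0% for H2-T, 43.2% for H2-Q, 38.6% for classical class I, 19.7% for H2-M, 18.1% for accessory and 5.95% for class II genes. Single genes reached 81.5% at H2-Q6, 80.2% at H2-Q7, 75.3% at H2-T9 and 74.0% at H2-T23. H2-K1 had 49.7%, H2-D1 27.4%, H2-DMb1 45.8%, H2-Aa 3.43% and H2-Ab1 3.68%. Of the 7 genes under 10%, 4 were open in all lists. These were H2-Aa, H2-Ab1 and the 2 name-sharing genes H2-Ke2 and H2-Ke6, while H2-Eb2, H2-M2 and H2-M11 were open in none. For H2-Q, H2-T, H2-K1, H2-D1 and H2-DMb1 a peak may thus hold reads of another copy, while the class II values rest on largely unique sequence.

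**Figure D3:**
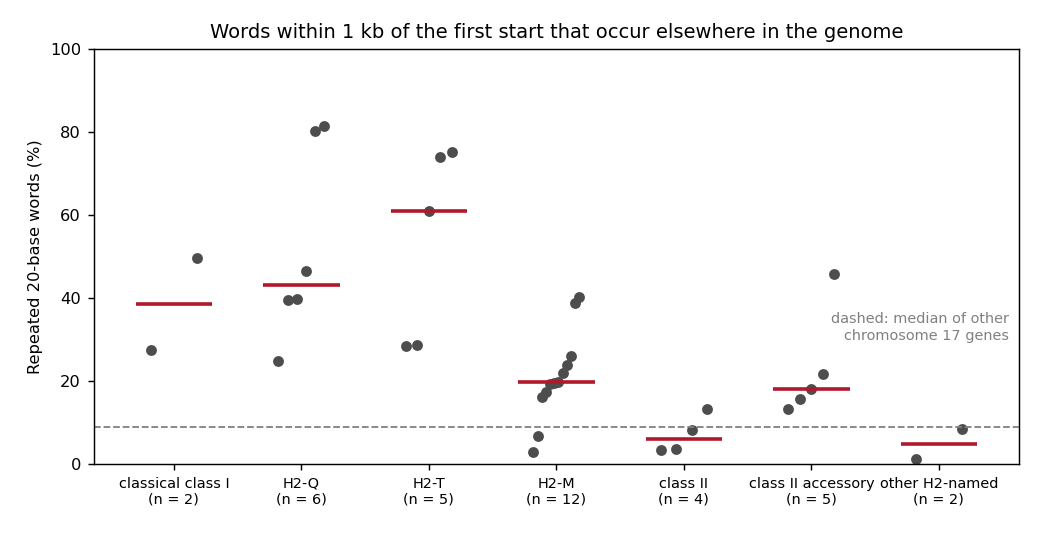
Share of 20-base words within 1 kb of the first start that occur again in the genome (y axis, percent), 1 point per H2 gene by group, with the group median as a bar. H2-Q and H2-T genes reach above 80% and 75%, and 3 of 4 class II genes lie under the median of other chromosome 17 genes (9.03%, dashed line).

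The count of peaks around H2 genes differed more between lists than between states. Gene bodies and 10 kb on each side joined into 26 windows of 0.80 Mb, which held 102 and 64 peaks of the G1E-ER4 lists against 92 and 109 of the G1E lists. The means were 83.0 and 100.5, a difference of -17.5 peaks (exact permutation test over lists, two-sided, p = 0.667, smallest possible 0.33), and without G1E-ER4 list 2 it was 1.5 peaks. The gap of that list lay mostly at class I genes. H2-Q windows held 29, 7, 28 and 29 peaks in the 4 lists and H2-T windows 27, 16, 21 and 33, while class II windows held 11, 8, 10 and 11 and accessory windows 13, 13, 15 and 17. The 12 H2-M windows held 2, 3, 2 and 6. Overlapping windows can count a peak in more than 1 group.

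**Figure D4:**
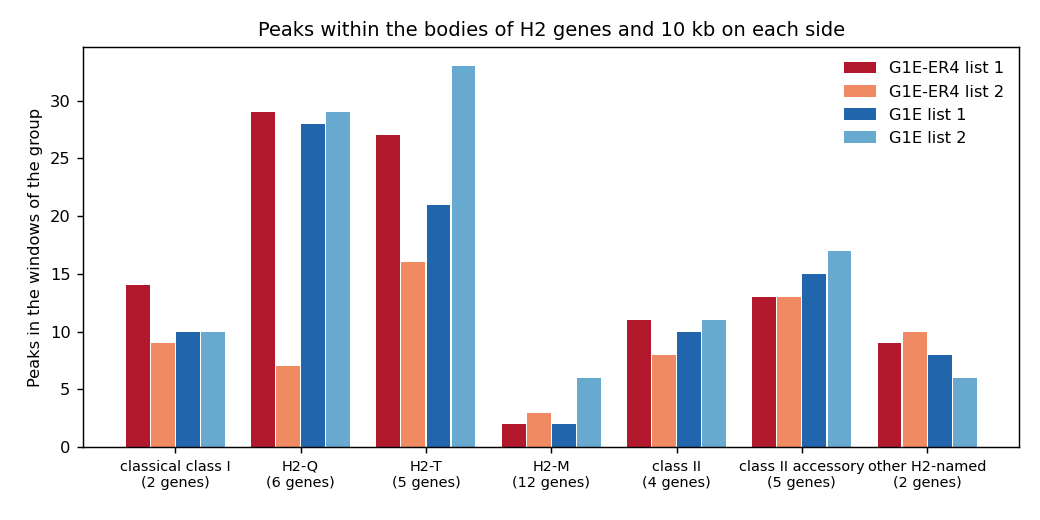
Number of peaks in the windows of each H2 group (gene bodies and 10 kb on each side) in the 4 lists. In H2-Q windows G1E-ER4 list 2 has 7 peaks and the other lists 28 or 29, while in class II windows the lists have 8 to 11.

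Merging peaks that overlapped by at least 1 bp gave 130 regions in these windows. Of these 43 (33.1%) were in all 4 lists, against 17.6% of 143154 regions within 10 kb of protein-coding genes. Only 1 region was in both G1E-ER4 lists alone, against 2.59% of all, and 7 were in both G1E lists alone, against 3.75%. The G1E-ER4 region (chr17:34069602-34070940, percentiles 45.0 and 40.0) lay in Rgl2, a neighbour of H2-Ke2. The G1E region with the highest mean percentile (chr17:34386780-34387244, 69.4 and 53.4) lay inside H2-Ob, followed by the region of the H2-DMb2 peaks. Another (chr17:34428413-34428936, 54.7 and 38.5) lay 3902 bases upstream of H2-Aa. Leaving out 1 list loosens the rule, and shares of all regions under the looser rule were not computed. The G1E count then became 25 without G1E-ER4 list 1, 12 without G1E-ER4 list 2, 19 without G1E list 1 and 15 without G1E list 2, and the G1E-ER4 count became 9, 20, 2 and 1 in the same order.

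G1E-ER4 list 2 stood apart from the other lists among regions with many repeated words. Of 46 regions in which at least 50% of the words occurred elsewhere, G1E-ER4 list 2 held 11 (23.9%) and the other lists 38 (82.6%), 28 (60.9%) and 38 (82.6%). Of 34 regions under 10%, it held 21 (61.8%) and the others 22 (64.7%), 20 (58.8%) and 22 (64.7%). Of the 46 regions, 12 were in every list but G1E-ER4 list 2, and none was missing from another list alone. Promoters are a different unit, since a region needs a peak in at least 1 list and a promoter does not. For other chromosome 17 genes with at least 50% repeated words, 35.7, 36.5, 43.5 and 42.6% of 115 promoters had a peak in the 4 lists. Under 10% the shares were 73.5, 84.0, 79.2 and 74.2% of 563, highest in G1E-ER4 list 2. Counted as promoters, 17, 18, 22 and 22 of the 36 H2 genes had a peak. Read placement, differences between strain 129 and the mm9 reference and the cells themselves were not tested as sources of the low G1E-ER4 list 2 share.

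**Figure D5:**
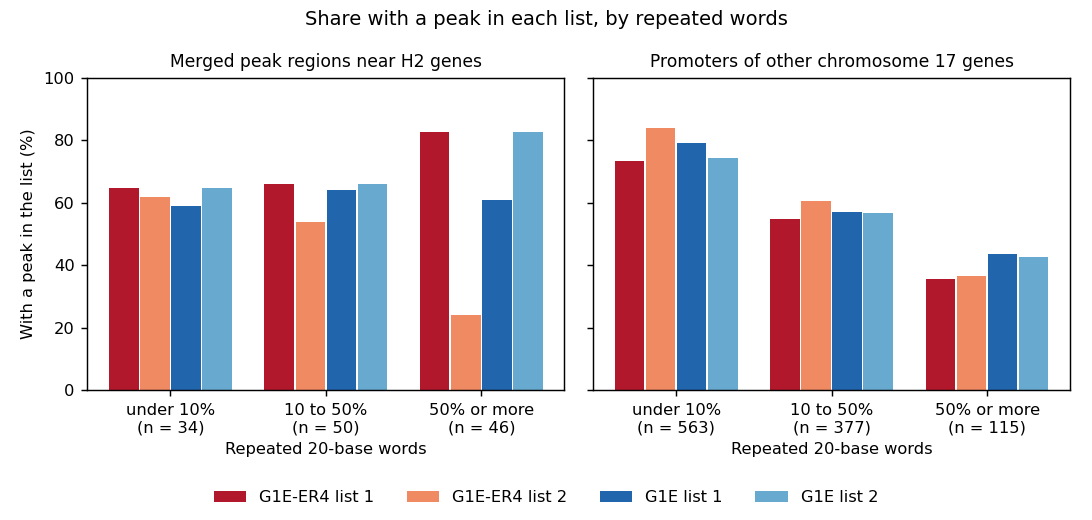
Share with a peak in each list (y axis, percent) by share of repeated 20-base words, for merged regions near H2 genes (left) and for promoters of other chromosome 17 genes (right). Near H2 genes G1E-ER4 list 2 falls to 23.9% among regions with 50% or more repeated words, while the other lists stay at 60.9% or above; on the right the 4 lists lie between 35.7 and 43.5% in that bin.

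Upstream of 4 class I genes a recurring region was in every list but G1E-ER4 list 2. It lay 3240 bases before H2-K1 (chr17:34139164-34141872), 3813 before H2-Q6 (chr17:35556424-35559540), 4203 before H2-Q7 (chr17:35570216-35573579) and 3810 before H2-Q10 (chr17:35602401-35604048), measured from the first start to the centre. The H2-K1 region stood at 87.6 in G1E-ER4 list 1 and 80.1 and 82.0 in G1E. That of H2-Q7 stood at 89.5, 83.6 and 83.3 in the same lists, that of H2-Q6 at 88.0, 79.7 and 76.8, and that of H2-Q10 at 75.3, 56.4 and 78.7. None of the 4 had a peak in G1E-ER4 list 2. They share sequence, since 23.2% of the 20-base words of the H2-K1 region were found in the H2-Q6 region and 17.7% in the H2-Q7 region. H2-D1 had a region at a like distance, 3954 bases upstream (chr17:35394172-35397270), which was in all 4 lists at 98.4, 89.2, 82.9 and 90.5. It shared 0.263% of its words with the H2-K1 region and 0.460% with the H2-Q6 region. H2-T24 too had a region at a like distance, 3338 bases upstream (chr17:36160294-36161392). That region was in all 4 lists at 40.4, 81.7, 72.1 and 75.1, and shared no 20-base word with the H2-K1 region.

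The other strong regions outside promoters were in all 4 lists. The highest mean was at chr17:36130247-36133029 (95.7, 91.0, 88.8 and 90.3), within the predicted gene Gm20508 and downstream of H2-T24. Its neighbour at chr17:36133245-36136634 stood at 87.9, 90.0, 87.3 and 91.3. The next, at chr17:34237509-34239460 (94.2, 89.7, 91.2 and 89.3), lay 9199 bases past the start of H2-Oa, the gene with no promoter peak. A region 2375 bases upstream of H2-T23 (chr17:36171353-36172997) stood at 91.8, 84.4, 89.2 and 85.5. One 7472 bases upstream of H2-DMa (chr17:34263749-34265562) stood at 69.2, 89.6, 88.4 and 90.6. That distance is from the first annotated start, and the RefSeq start of H2-DMa used here lies further upstream, at 34262463, so the region is inside the RefSeq gene. Within 1 kb of the RefSeq start, H2-DMa had no peak in G1E-ER4 list 1 and stood at 27.9 in G1E-ER4 list 2 and at 63.6 and 78.4 in the G1E lists. One 3706 bases upstream of H2-Ob (chr17:34371736-34372549) stood at 85.3, 82.8, 85.7 and 80.0, well above the promoter of that gene. The last of the 10, within Ddx39b and 9174 bases upstream of H2-D1 (chr17:35388839-35392164), stood at 91.2, 81.3, 83.1 and 82.3.

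Most genes that serve the H2 molecules were open in every list. Of 17 antigen processing and loading genes, 16 were open in all 4 lists, against 52.4% of all protein-coding genes, and March1, a ligase that removes class II molecules from the surface, had none. B2m, the light chain of class I, stood at 89.5, 94.9, 93.1 and 98.4. Tap1 and the immunoproteasome gene Psmb9, which share a promoter, stood at 95.9, 91.7, 96.7 and 94.3. The immunoproteasome gene Psmb8 was lower, at 58.3, 40.0, 11.0 and 73.1. For class II, the invariant chain gene Cd74 stood at 89.1, 67.1, 76.5 and 83.4, and the cathepsin gene Ctss, whose protease trims the invariant chain, at 25.9, 18.4, 45.1 and 57.1. Transcription was not measured here.

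Of 15 regulators found in the annotation, 13 were open in all 4 lists, beside the same 52.4% of all genes. The X box factors Rfx5, Rfxap and Rfxank, the Y box factors Nfya, Nfyb and Nfyc, and Creb1 lay above the 93rd percentile in every list. Ciita, the class II coactivator, had a promoter peak only in G1E list 2, at 54.1. Irf8 stood at 70.3 and 56.9 in G1E-ER4 and 23.8 in G1E list 1, with no promoter peak in G1E list 2. Nfkb1 stood at 88.9 and 82.2 in G1E-ER4 against 38.4 and 59.3 in G1E. Nlrc5 was not matched by symbol and is not analysed here. Markers of cells that make class II molecules, and of T cells, were read beside the 52.4% of all genes open in all 4 lists. Of the B cell markers reported here, Pax5 (81.8, 90.4, 88.7 and 68.7) and Ebf1 (93.5, 82.3, 71.4 and 84.2) were open in all lists. Ms4a1 was open in none, Cd79a in G1E-ER4 list 2 and Cd79b in both G1E-ER4 lists at 47.0 and 50.9. Of 8 macrophage and dendritic cell markers, 3 were open in all lists, 4 in some lists and Emr1 in none. The 3 were Csf1r (46.0, 3.19, 37.2 and 26.1), Flt3 (93.7, 68.2, 40.5 and 36.7) and Zbtb46 (96.0, 99.8, 98.1 and 91.7). Of 6 T cell markers, 1 (Lck, at 73.6, 91.7, 88.2 and 89.1) was open in all lists. The part of other cells in the class II peaks was not tested.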

How the data were processed

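The values were DNase-seq peak lists in narrowPeak form, 2 for each of 2 samples. Per the series design text, the authors aligned 20-base reads to mm9 with Bowtie, kept reads with several places at the best one, pooled lanes per replicate, computed an F-seq density and called peaks per list by a gamma fit. The sources used here give no tool versions, read numbers or peak threshold. The deposited signal of a peak is that density, with no stated scaling between lists, so it was turned into a percentile within its list, and depth gives no interval here. Groups follow the cell named in the labels.

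Starts, bodies and protein-coding status came from the GENCODE annotation on mm9, and coordinates are 1-based. Peaks within 1000 bp of any start counted as promoter peaks, and peaks within gene bodies and 10 kb on each side as window peaks. Windows and regions of the 4 lists were merged at 1 bp overlap. A 20-base word counted as repeated if it or its reverse complement occurred again in mm9. H2-named entries not annotated as protein-coding (H2-K2, H2-Ea-ps, H2-M6-ps, H2-Q8, H2-Bl and H2-T10) were left out. Of the markers, 1 is not reported here. Members, partner genes, markers and motifs were chosen with earlier results of these data known. The rule names all H2 genes with a promoter peak, gives percentiles for those in all lists or in 1 state, and names the 10 strongest regions outside promoters. Python 3.11.15 with numpy 2.4.6, pandas 2.3.3, scipy 1.17.1 and Biopython 1.88 was used, and promoter and region calls were tested on simulated peaks. Alternatives were other promoter distances, summits, first starts, the top 50% or 20000 peaks, other flanks, 50% reciprocal overlap, other percentiles and leaving out each list.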

Additional observations from a re-analysis of the deposited data

How the results depend on the processing

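Depth is unknown and each state is 1 sample, so ranks and counts describe these 4 lists. No paired analysis was possible because each state has 1 sample and the list numbers are not said to mark a shared culture or day. The count of H2 promoters open in all 4 lists (15) was 13 to 16 with other distances, summits or starts, 15 to 18 without 1 list, 9 in the top 50% and 5 in the top 20000 peaks. It was 4 of 7 among genes with under 10% repeated words, and these 4 include the name-sharing genes H2-Ke2 and H2-Ke6. The class open in no list (14) rose to 26 in the top 20000. The G1E-ER4-only class stayed at 0 in each of these settings. The G1E-only class (2) was 1 at 500 bp, 1 at 2000 bp, 1 in the top 50%, 0 in the top 20000 and 2 to 5 without 1 list. Genes ranked higher in both G1E-ER4 lists (1) became 2 at 2000 bp, 2 with an overlap-weighted mean and 2 to 11 without 1 list, and those higher in both G1E lists (1) became 2 with that mean and 1 to 10 without 1 list. G1E-ER4-only regions (1) were 0 in gene bodies, 4 with 50 kb flanks, 0 in the top 20000, 2 with 50% overlap and 1 to 20 without 1 list. G1E-only regions (7) were 3 in gene bodies, 13 with 50 kb flanks, 3 in the top 50%, 0 in the top 20000, 15 with 50% overlap and 12 to 25 without 1 list. Stricter limits keep fewer peaks by construction, and the cause of the other changes was not tested. The difference in mean peaks per list ran from -36.5 to 1.5 without 1 list and was 2 in the top 20000. Chosen after seeing the data, limits of 30% and 70% repeated words left 29.7% and 21.7% of regions in G1E-ER4 list 2, against 60.9 to 91.3% in the others. Regions with under 50% repeated words gave 1 G1E-ER4-only region and 5 G1E-only regions.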
